A study of Mus musculus with 2 samples.

Results

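Voltage-gated and potassium channel genes were examined in GL261, a mouse glioma cell line from the C57BL/6 strain that the labels describe as an astrocytoma. The genes were chosen by symbol alone: every gene whose symbol starts with Kcn, with Scn and a digit, or with Cacna1. Of the 32285 genes in the files, 123 met this rule, and the 32 with at least 50 unique molecular identifiers (UMIs, each a count of 1 captured RNA molecule) over both libraries, counted in all called cells, were read. The 32 take in auxiliary subunits and also 3 genes caught by their symbol that encode no channel subunit (Kcnq1ot1, Kcnmb4os2 and Kcnrg). Another 65 of the 123 genes had a UMI but fewer than 50, and 26 genes had none. Just inside the minimum were Kcnmb2 and Kcnh2 with 51 UMIs each and Kcnh6 with 52 UMIs. Just outside it were Kcnj14 with 49 UMIs and Kcnip4 with 45 UMIs.

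The study asked how gene expression differs between GL261 cells grown attached to the flask and as free-floating spheres. Adherent cells grew in DMEM with fetal bovine serum and penicillin-streptomycin, and neurosphere cells grew for 12 days in that medium with B-27 and with Fibroblast Growth Factor and Epidermal Growth Factor at 20 ng/mL each. The neurospheres were broken up through ever narrower pipette tips, which the adherent cells were not. By the labels trypsin was used on both, although the methods of the study name it for the adherent cells alone. Both were frozen with DMSO before a 10x Genomics 3' library was made. Each culture gave 1 library, so nothing below has a replicate, no test was possible, and all intervals are exact 95% intervals that cover counting error only.

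Levels are given as CPM, the UMIs of a gene in the kept cells scaled to a total of 1000000 UMIs over all genes apart from the mitochondrial and ribosomal ones. Log2 fold changes set neurosphere over adherent CPM, and "higher" and "lower" are used of genes past 2-fold. The 5764 adherent and 4951 neurosphere cells held 68531063 and 82832873 UMIs, and the 5051 and 4276 cells that passed the filter had medians of 8260 and 13198.5 UMIs. The libraries shared 12 cell barcodes, 9 of them among the kept cells. The median share of mitochondrial UMIs was 2.02% in the kept adherent cells and 3.97% in the kept neurosphere cells. Because the neurosphere cells were deeper, shares of cells with a UMI are also given after each cell was thinned to 5000 UMIs. Of the adherent cells 587, and of the neurosphere cells 80, were too shallow to be thinned, and 1 cell then stands for 0.0224% and 0.0238%. Since all cells are of 1 line, there was no cell type without these channels in which the share due to free RNA could be read.

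Voltage-gated potassium (Kv) channels are tetramers of alpha subunits that open on depolarization and let potassium leave the cell, and beta, KChIP and KCNE proteins assemble with them as auxiliary subunits. Inward rectifier and two-pore channels set the resting potential, and calcium- and sodium-activated channels respond to the cell's ion load. Voltage-gated sodium and calcium channels, whose pore lies in 1 long alpha subunit, admit the inward currents of excitable cells. In glia and glioma cells, potassium channels are known for their part in the resting potential, in cell volume and in cell division.

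All potassium channel pores share a short selectivity filter in which a glycine, a tyrosine or phenylalanine and a second glycine line the path of the ion. The coding sequence of this filter is shown for 5 potassium channel genes that the results turn on, in the 5′ to 3′ direction of the gene, with the 3 codons of that core in capitals. The sequences come from the GENCODE M21 transcripts of GRCm38.
Kcna6: acaatgaccacggtaGGTTATGGGgacatg
Kcnd2: accatgacaacactgGGGTATGGCgacatg
Kcnh4: agcctcaccagtgtaGGCTTCGGCaacgtg
Kcnh7: agtctaaccagtgtaGGATTTGGAaatgtg
Kcnj10: tcccagaccaccatcGGCTATGGCttccgc
The windows lie in coding exons at chr6:126738641-126738670 (Kcna6, minus strand), chr11:100750287-100750316 (Kcnh4, minus), chr2:62777337-62777366 (Kcnh7, minus) and chr1:172369293-172369322 (Kcnj10, plus). The window of Kcnd2 spans the junction of neighbouring exons. The middle codon encodes tyrosine in Kcna6, Kcnd2 and Kcnj10 and phenylalanine in the EAG-type genes Kcnh4 and Kcnh7, which also carry a serine codon in place of threonine before the core. A filter of this form (threonine or serine, any residue, glycine, tyrosine or phenylalanine, glycine) was found in the coding sequence of 77 of 94 Kcn genes, 81.9%, which include auxiliary subunits without a pore. Among all 21754 coding genes, 2.63% held it.

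The summed level of all 30 genes for Kv alpha subunits was close in the cultures, while the genes that made it up differed. The sum was 27.3 CPM (1266 UMIs) in adherent against 27.0 CPM (1755 UMIs) in neurospheres, which gives a log2 fold change of -0.017 (-0.12 to 0.088). Scaling moved this value: it was 0.20 when the total took in the mitochondrial and ribosomal genes and -0.23 with TMM scaling, so that no direction can be given. Kcna6, a Shaker-type channel, gave 45.9% (43.1% to 48.7%) of these UMIs in adherent cells but 4.84% (3.89% to 5.95%) in neurospheres. Kcnd2, the pore of a rapidly inactivating A-type channel, gave 0.632% (0.273% to 1.24%) and 17.04% (15.3% to 18.9%). Kcnh4, of the ELK group, gave 1.34% and 15.3%, and Kcnh7, of the ERG group, gave 0.711% and 8.09%. These shares follow UMIs and are not divided by gene length, so each is set only against the share of the same gene in the other culture.

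**Figure D1:**
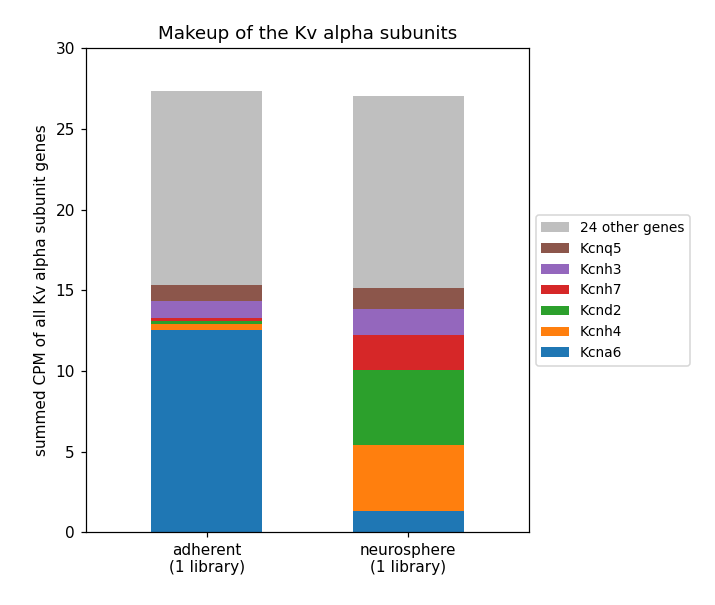
Summed CPM (y axis) of the 30 genes for Kv alpha subunits in the adherent and the neurosphere library, with 6 genes in colour and the other 24 in grey. The bars are of nearly the same height, 27.3 and 27.0 CPM, and Kcna6 fills 45.9% of the first and 4.84% of the second.

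Kcna6 (chromosome 6, 126708329 to 126740674, minus strand, GRCm38) was at 12.6 CPM (11.6 to 13.6) in adherent cells and at 1.31 CPM (1.05 to 1.62) in neurosphere cells. It was thus 9.59-fold lower in neurospheres, or a log2 fold change of -3.26 (-3.61 to -2.93), the lowest of the 32 genes. A Kcna6 UMI was seen in 10.6% of adherent against 1.92% of neurosphere cells, and after thinning in 6.21% and 0.643%. Kcna6 was the only one of 8 Kv1 genes to be read, and the 8 together stood at 13.0 and 1.82 CPM.

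Kcnd2 (chromosome 6, 21215503 to 21729805, plus strand) went the other way. It was at 0.173 CPM (8 UMIs) in adherent cells and 4.60 CPM (299 UMIs) in neurospheres, which gives a log2 fold change of 4.74 (3.74 to 5.96), the highest of the 32 genes. Of adherent cells 0.119%, and of neurosphere cells 3.93%, had a Kcnd2 UMI, and after thinning 0.0672% and 2.07% did. The neurosphere cells that had one held 1.78 UMIs on average.

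Among the 5 genes of the EAG, ERG and ELK group that were read, 3 were higher in neurosphere cells and 2 were not past 2-fold, where 21.7% of all genes read were higher and 11.7% lower. Kcnh4 (chromosome 11, 100740376 to 100759942, minus strand) was at 0.367 CPM in adherent against 4.13 CPM in neurospheres, for a log2 fold change of 3.49 (2.78 to 4.29). Kcnh7 (chromosome 2, 62693414 to 63184287, minus strand) was at 0.194 and 2.19 CPM, with a log2 fold change of 3.49 (2.53 to 4.65). For Kcnh6, also of the ERG group, the log2 fold change was 1.73, but its interval, 0.67 to 2.96, reached below 2-fold. Kcnh3 (0.64) and Kcnh2 (0.026, -0.83 to 0.90) were not past 2-fold, although Kcnh2 was at 0.96 after thinning. Together, the 8 genes of the group stood at 2.61 CPM in adherent against 9.32 CPM in neurosphere cells (log2 fold change 1.83, 1.55 to 2.13). Kcnh3 overlaps Mcrs1 on the opposite strand, and Mcrs1 held 15221 UMIs over both libraries. Kcnh7 likewise overlaps Gca on the opposite strand, which held 2348 UMIs against 151 UMIs of Kcnh7.

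Kcnq5, of the group that carries the M-current of neurons, had a log2 fold change of 0.35 with an interval that held 0. The 10 genes for silent Kv subunits, which alter other channels and form no pore alone, held 2 UMIs in adherent and 9 UMIs in neurosphere cells.

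**Figure D2:**
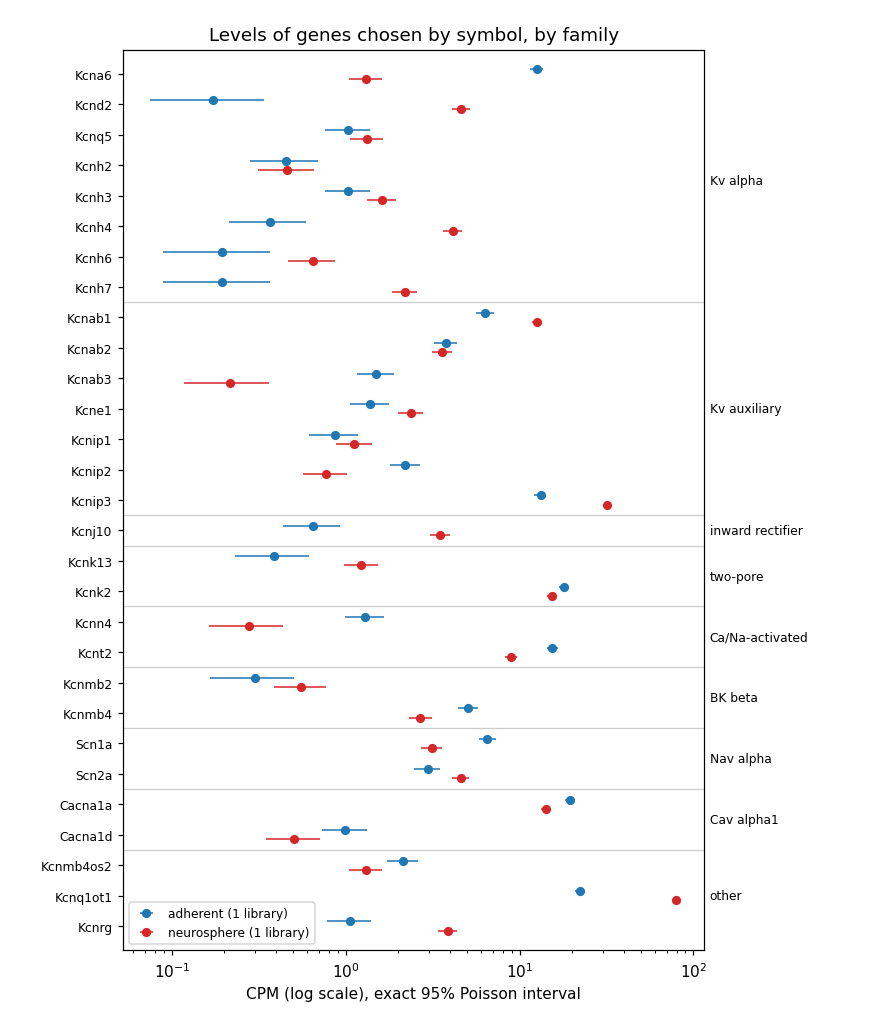
CPM of 29 of the 32 genes read (x axis, log scale) in adherent (blue) and neurosphere (red) cells, 1 library each, with exact 95% Poisson intervals as bars and the families named on the right. Kcna6 stands at 12.6 against 1.31 CPM and Kcnd2 at 0.173 against 4.60 CPM.

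Auxiliary subunits of Kv channels were, as a sum over 12 genes, at 29.5 CPM in adherent against 53.2 CPM in neurospheres, for a log2 fold change of 0.85 (0.76 to 0.94). Kcnip3 alone held 611 of the 1364 adherent UMIs of these genes and 2070 of their 3452 neurosphere UMIs. Of the 7 read, 1 was higher, 2 were lower and 4 were not past 2-fold, beside 21.7% higher and 11.7% lower of all genes read. Kcnip3 (chromosome 2, 127456498 to 127522094, minus strand) encodes a calcium-binding KChIP protein of A-type channels that is also known as a transcriptional repressor. It was at 13.2 CPM (12.2 to 14.3) in adherent against 31.9 CPM (30.5 to 33.3) in neurospheres, which gives a log2 fold change of 1.27 (1.14 to 1.40). Kcnip3 UMIs were present in 10.3% of adherent against 28.5% of neurosphere cells, and after thinning in 6.14% and 13.1%. With the trend on gene length removed, its log2 fold change was 0.84, under 2-fold.

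Kcnip2, another KChIP gene, stood the other way from Kcnip3, at 2.20 CPM in adherent against 0.770 CPM in neurosphere cells (log2 fold change -1.52, -2.04 to -1.02). Kcnip1 did not pass 2-fold (0.38, -0.20 to 0.97). The genes of the cytoplasmic beta subunits split as well. Kcnab3 was at 1.49 and 0.216 CPM, a log2 fold change of -2.79 (-3.73 to -1.95). Kcnab1 was at 6.33 and 12.6 CPM, a log2 fold change of 0.99 (0.80 to 1.19) that lay at the 2-fold limit and passed it under 5 of the alternatives tried. Kcnab2 was at 3.76 and 3.60 CPM, with an interval that held 0. Kcne1, a subunit with a single membrane segment, had a log2 fold change of 0.78 (0.35 to 1.22).

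The resting-potential channels differed among themselves. Kcnj10 (chromosome 1, 172341210 to 172374085, plus strand), the inward rectifier known from astrocytes and oligodendrocytes, was at 0.648 CPM in adherent against 3.51 CPM in neurospheres, for a log2 fold change of 2.44 (1.88 to 3.04). It was the only one of 15 inward rectifier genes to be read. Kcnk2 (chromosome 1, 189207930 to 189402273, minus strand), a two-pore channel that responds to membrane stretch and lipids, was at 18.04 CPM (16.8 to 19.3) and 15.4 CPM (14.4 to 16.3). Its log2 fold change of -0.23 (-0.37 to -0.098) stood far from 2-fold. Kcnk2 UMIs were in 14.9% of adherent and 19.3% of neurosphere cells, an order that turned around after thinning, to 8.62% and 7.34%. The gene overlaps 2900042K21Rik, with 82 UMIs, on the same strand. Kcnk13, also a two-pore gene, was higher in neurosphere cells at a low level (0.389 and 1.23 CPM, log2 fold change 1.66), with an interval from 0.91 to 2.49 that reached below 2-fold.

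Calcium- and sodium-activated potassium channel genes summed, over 8 genes, to 17.5 CPM in adherent against 9.99 CPM in neurosphere cells (log2 fold change -0.81, -0.96 to -0.66). Kcnt2 (chromosome 1, 140246158 to 140612067, plus strand), a sodium-activated channel, was at 15.4 CPM (14.3 to 16.6) in adherent against 8.96 CPM (8.25 to 9.72) in neurosphere cells. Its log2 fold change was -0.78 (-0.94 to -0.62), and with the length trend removed it was -1.62. Kcnn4, the calcium-activated channel of intermediate conductance, was at 1.30 and 0.277 CPM, a log2 fold change of -2.23 (-3.07 to -1.45). Kcnmb4, a beta subunit of the large-conductance BK channel, was at 5.08 and 2.69 CPM (-0.91, -1.20 to -0.63), and Kcnmb2 had a log2 fold change of 0.87 with an interval that held 0.

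Sodium channel genes summed to 12.9 CPM in adherent against 9.95 CPM in neurosphere cells (log2 fold change -0.38, -0.54 to -0.21, 14 genes), and the alpha subunit genes read differed in direction. Scn1a (chromosome 2, 66270778 to 66440840, minus strand) was at 6.52 and 3.14 CPM, a log2 fold change of -1.05 (-1.32 to -0.79). That is just past 2-fold, and it was -0.95 after thinning and -0.84 with mitochondrial and ribosomal genes in the total. Scn2a, on the same chromosome (65620771 to 65767447, plus strand), was at 2.96 and 4.59 CPM, a log2 fold change of 0.63 (0.34 to 0.94). The intervals of their log2 fold changes do not overlap.

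Calcium channel alpha1 genes summed to 21.1 CPM in adherent against 15.6 CPM in neurosphere cells (-0.44, -0.57 to -0.31, 10 genes). Cacna1a (chromosome 8, 84388440 to 84640246, plus strand), the pore of P/Q-type channels, held 907 of their 975 UMIs in adherent and 922 of 1010 UMIs in neurosphere cells, at 19.6 CPM (18.3 to 20.9) and 14.2 CPM (13.3 to 15.1). Its log2 fold change was -0.46 (-0.60 to -0.33), and its UMIs were in 15.7% and 18.4% of cells, or 9.41% and 6.03% after thinning. Cacna1d, an L-type pore, was the only other one read, with a log2 fold change of -0.97 (-1.66 to -0.29), and it overlaps Dcp1a (935 UMIs) on the opposite strand.

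The rule also caught genes that are not channels. Kcnq1ot1 (chromosome 7, 143203458 to 143296549, minus strand) is a long noncoding RNA antisense to Kcnq1, known for silencing its imprinted neighbours in cis. It had the most UMIs of the 123 genes, at 22.1 CPM (20.8 to 23.5) in adherent against 78.9 CPM (76.7 to 81.1) in neurospheres, which gives a log2 fold change of 1.83 (1.74 to 1.93). Its UMIs were in 16.6% of adherent against 56.1% of neurosphere cells, and after thinning in 9.95% and 30.5%. Kcnq1 itself held 4 UMIs in adherent and 28 UMIs in neurosphere cells. Kcnrg, whose protein interferes with the assembly of Kv channels, was at 1.06 and 3.86 CPM (1.87, 1.42 to 2.34), and it overlaps Dleu2, which held 6411 UMIs, on the opposite strand. Kcnmb4os2, antisense to Kcnmb4, had a log2 fold change of -0.71 beside the -0.91 of Kcnmb4. The sources used here do not state whether the counting used strand, so reads of such pairs may not have been told apart.

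**Figure D3:**
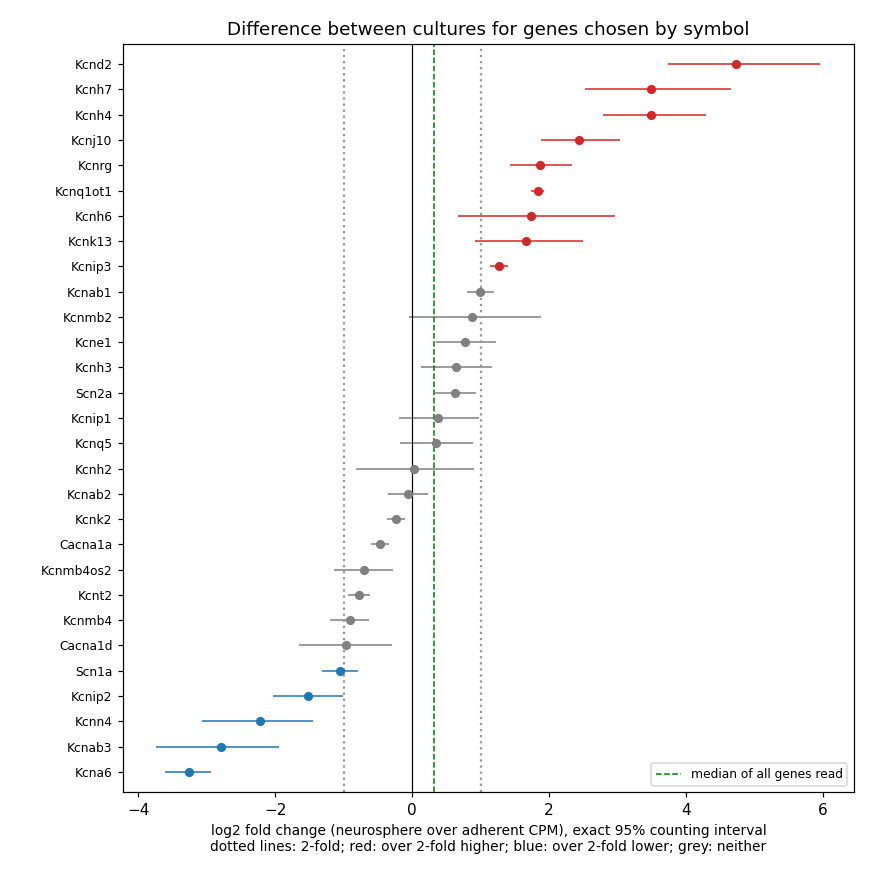
Log2 fold change of 29 of the 32 genes (x axis, neurosphere over adherent CPM) with exact 95% counting intervals, ordered by value. Red points are higher and blue points lower by over 2-fold, dotted lines mark 2-fold, and the dashed green line is the median of all genes read, 0.32. The values run from -3.26 (Kcna6) to 4.74 (Kcnd2).

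Of the 32 genes read, Kcnq1ot1, Kcnmb4os2 and Kcnrg included, 9 were higher in neurosphere cells (28.1%, where 21.7% of all 14693 genes read were higher) and 5 were lower (15.6%, against 11.7% of all genes read). The whole interval lay past 2-fold for 7 of the 9 and for 4 of the 5. Of the 18 genes that were neither, 7 had an interval that held 0. The protein-coding 30 of them held 8 higher (26.7%) and 5 lower (16.7%). The median log2 fold change was 0.20 for the 32 genes and 0.32 for all genes read, an order that turned around with at least 200 UMIs, to 0.63 and 0.34. The minimum on the sum of both libraries lets in genes that are low in 1 of them, and 15 of the 32 genes had under 50 UMIs in a library, with 8 of the 14 called genes among these. With at least 50 UMIs in each library, an alternative chosen after seeing the data, 17 genes of the rule were left, with a median of -0.23. Of these, 3 were higher (Kcnip3, Kcnq1ot1 and Kcnrg, none of which encodes a channel pore) and 3 lower (Kcna6, Kcnip2 and Scn1a). Of all 12169 genes so read, 17.7% were higher and 9.18% lower, with a median of 0.30.

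The 32 genes are long, with a median span of 76.4 kb against 22.6 kb for all genes read, and longer genes stood higher in neurosphere cells. Of all 1929 genes read that span at least 100 kb, 32.7% were higher and 10.5% lower in neurosphere cells, with a median log2 fold change of 0.59. Of the 12 genes of the rule of that span, 2 were higher (16.7%) and 1 was lower (8.33%), with a median of 0.37. The part of length in the differences of single genes was not tested beyond removing its trend. Removing the trend left 8 of the 32 genes higher (25.0%) and 9 lower (28.1%), with a median of -0.35, where 14.3% of all genes were higher and 15.7% lower, with a median of 0.022. It lowered the log2 fold changes of Kcnd2 and Kcnh7 to 3.80 and 2.57, and those of Kcnab1, Scn2a and Kcnmb2 to 0.24, 0.027 and 0.094. Kcnq5 and Kcnip1 came to -0.61 and -0.46, and Kcnk2 to -0.90. Scn1a, Cacna1d and Cacna1a came to -1.69, -1.87 and -1.20, all past 2-fold.

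Levels of different genes were also set per kb of gene span, but whether UMIs of a 3' library scale with span was not tested. In adherent cells Kcna6 was at 0.388 CPM per kb, above Kcnip3 at 0.201 CPM per kb. Undivided, the order was the reverse, with Kcnip3 at 13.2 CPM and Kcna6 at 12.6 CPM. In neurosphere cells Kcnip3 was at 0.486 CPM per kb, while Kcnd2, a gene of 514303 bases, was at 0.00895 CPM per kb. Per kb, Kcnd2 had rank 32 among the protein-coding genes that met the rule, against rank 7 by UMIs. All protein-coding genes of the rule, Kcnrg and the auxiliary subunits included, were together at 135.5 CPM in adherent against 144.9 CPM in neurosphere cells (log2 fold change 0.097, 0.050 to 0.14), and this sum lay at -0.12 with TMM scaling. At least 1 such UMI was present in 66.0% of adherent against 80.3% of neurosphere cells, with a median of 1 and 2 such genes per cell at the unequal depths of the libraries.

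The cells of each culture were also clustered, with the genes of the rule left out of the variable genes, and clusters are given by number because all cells come from 1 line. Each culture gave 10 clusters. In neurosphere cells, Kcnh4 ran from 0.261 CPM (0.032 to 0.94) in cluster 7 to 12.9 CPM (9.92 to 16.4) in cluster 1, which was led by Comp, Pdzd2 and Ism1. Its lowest cluster was at 0.402 CPM when these genes were left among the variable genes and at 0.896 CPM with a clustering resolution of 0.8, while its highest was at 13.4 and 12.6 CPM. Cluster 1 also held the highest Kcnq1ot1 level, 154.3 CPM, against 47.2 CPM in cluster 7. Cluster 7 was the deepest, with a median of 23243 UMIs per cell, and cluster 1 the shallowest, with 7623 UMIs. Whether depth played a part in these levels was not tested.

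Kcnd2 was highest in neurosphere cluster 0, at 9.42 CPM (7.70 to 11.4), and lowest in cluster 6, at 1.06 CPM (0.34 to 2.48). Kcnip3 stood the other way round in these clusters, at 17.4 CPM in cluster 0 and 65.6 CPM in cluster 6. Its highest level was 71.6 CPM (61.2 to 83.2) in cluster 9 and its lowest 14.1 CPM (10.3 to 18.9) in cluster 8, a range that narrowed to between 16.2 and 55.5 CPM and to between 16.8 and 52.7 CPM under those other clusterings. Scn2a was highest in cluster 6, at 10.2 CPM, a cluster led by Chit1, Cyp4f18 and Mt3. Cacna1a ran from 6.13 CPM (4.17 to 8.71) in cluster 1 to 26.5 CPM (20.4 to 33.9) in cluster 9. Kcnt2 varied little, from 6.53 to 12.9 CPM, though its highest cluster was at 38.4 CPM when the genes of the rule were left among the variable genes.

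In adherent cells, cluster 9 stood apart. Its 48 cells had a median of 2623.5 UMIs and were led by Lars2, Pcdh9 and 4921507G05Rik. Kcna6 was at 120.7 CPM there (69.0 to 196.0), where the other clusters lay between 6.57 and 19.8 CPM. Kcnq1ot1 was at 143.3 CPM (86.3 to 223.8), against 5.96 to 35.4 CPM elsewhere. Kcnt2 was at 90.5 CPM (46.8 to 158.1), against 5.84 to 24.3 CPM. These levels of Kcna6, Kcnq1ot1 and Kcnt2 rest on 16, 19 and 12 UMIs. Nalcn, outside the rule, was at 203.7 CPM (134.2 to 296.4), against 13.7 to 54.9 CPM elsewhere. Cluster 9 was also highest for Kcnk2 (30.2 CPM, 4 UMIs) and for Kcnab1, Kcnmb4 and Scn1a (15.1 CPM and 2 UMIs each). Cluster 9 held 2.75% of the adherent Kcna6 UMIs, and without it the log2 fold change of Kcna6 was -3.23. At the other end, cluster 3, led by Areg, Spink2 and Ube2c and the deepest with a median of 12307.5 UMIs, had the lowest levels of Kcnq1ot1, Kcnt2, Kcnab1 (2.26 CPM) and Scn1a (2.74 CPM). Cacna1a was highest in cluster 6 (38.4 CPM, 31.7 to 46.1), and Kcnip3 in cluster 4 (25.7 CPM, 20.8 to 31.3), which was led by Cd68, Chit1 and Mt3.

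**Figure D4:**
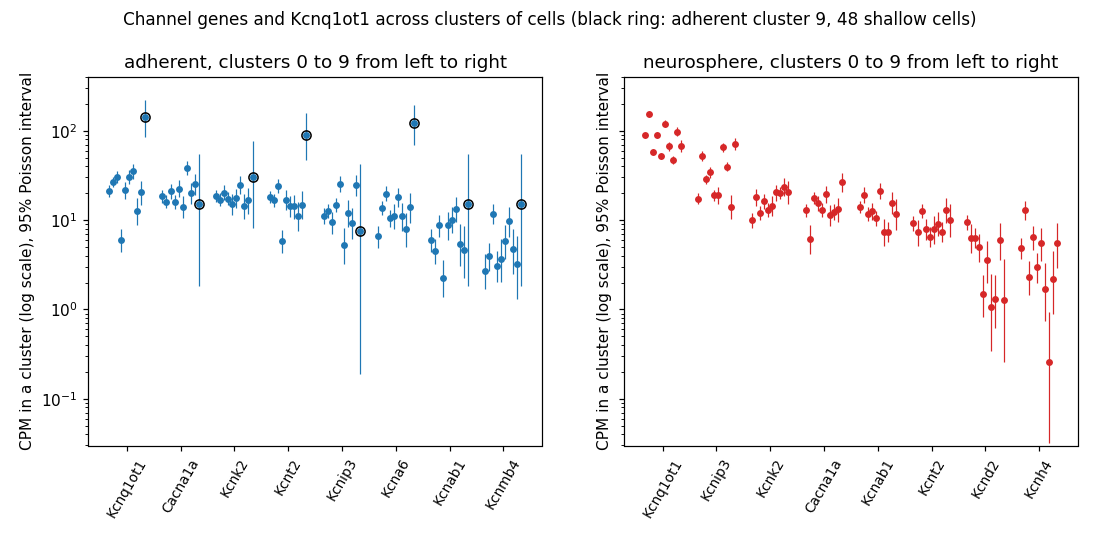
CPM (y axis, log scale) of 7 channel or channel subunit genes, not the same 7 in both panels, and of the noncoding Kcnq1ot1 in each of the 10 adherent (left, blue) and 10 neurosphere (right, red) clusters, with exact 95% Poisson intervals, clusters 0 to 9 running from left to right within each gene. Adherent cluster 9 (black rings) stands highest for Kcnq1ot1, Kcnt2 and Kcna6, at 143.3, 90.5 and 120.7 CPM. It is also highest, with wide intervals, for Kcnk2, Kcnab1 and Kcnmb4. Kcnh4 spans 0.261 to 12.9 CPM over the neurosphere clusters.

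The known partners of the channels gave some of the widest differences. Dpp6 and Dpp10 encode membrane proteins that assemble with A-type channels such as that of Kcnd2. Dpp6 was at 0.281 CPM (13 UMIs) in adherent against 34.1 CPM (2217 UMIs) in neurospheres, which gives a log2 fold change of 6.93 (6.15 to 7.84). Dpp10 was at 0.065 CPM (3 UMIs) and 1.43 CPM (93 UMIs), with a log2 fold change of 4.47 (2.87 to 6.77). Both are long genes, and with the length trend removed their log2 fold changes were 5.83 and 3.43. The share of cells with a Dpp6 UMI was 0.257% and 25.3%, and 0.202% and 12.7% after thinning. Dpp6 was highest in neurosphere cluster 1 (64.1 CPM) and lowest in cluster 7 (11.1 CPM), where Kcnd2 stood at 6.33 CPM (4.33 to 8.94) and 1.31 CPM (0.63 to 2.40). In clusters 0 and 6, where Kcnd2 was highest (9.42 CPM) and lowest (1.06 CPM), Dpp6 differed less, at 39.5 and 34.6 CPM. Dlg4, the postsynaptic scaffold that clusters Shaker-type channels, was at 9.63 and 1.68 CPM (-2.52, -2.84 to -2.22). Dlg1, a scaffold of the same family, was at 64.1 and 50.2 CPM (-0.35), not past 2-fold. Of the 15 partners of Kv and BK channels, 6 were read, 3 higher and 1 lower. Of all genes read, 21.7% were higher and 11.7% lower.

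Of 19 genes for auxiliary and adaptor subunits of calcium channels, 8 were read, with 2 higher and 2 lower, beside 21.7% higher and 11.7% lower of all genes read. Stac2, a calcium channel adaptor, was at 3.82 and 0.139 CPM (-4.79, -5.94 to -3.83). Cacnb2, a beta subunit gene, was at 0.475 and 3.43 CPM (2.85, 2.22 to 3.56), and Cacng4, of the gamma family whose members also serve AMPA receptors, at 0.497 and 2.09 CPM (2.08). Of 9 partners of sodium channels, 6 were read, 2 higher and 3 lower (all genes: 21.7% and 11.7%). The lower ones were Nrcam (23.6 and 5.07 CPM), Ank3 (20.2 and 5.64 CPM) and Sptbn4 (6.03 and 1.83 CPM), a cell adhesion protein, an anchor and a spectrin found with sodium channels at the axon initial segment. Their log2 fold changes were -2.22, -1.84 and -1.72. The higher ones were Fgf12 (2.04, 1.14 to 3.06, on 12 UMIs in adherent cells) and Fgf14 (1.85, 1.36 to 2.36). Both are long genes, of 592971 and 699221 bases, and their values without the length trend are not given here. With the length trend removed, Cacnb2 was at 2.00, Nrcam at -2.98 and Ank3 at -2.83.

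Outside the Kcn, Scn and Cacna1 families, Nalcn (34.5 and 165.8 CPM, 2.26, 2.19 to 2.34), the sodium leak channel, was higher in neurosphere cells. So was Unc80, a part of the same complex (1.23, 0.99 to 1.47), although its interval reached just below 2-fold. With the length trend removed they were at 1.44 and 0.52, so that Unc80 was no longer past 2-fold. Among 8 HCN, NALCN and proton channel genes, 6 were read, with 2 higher and 1 lower, the proton channel gene Hvcn1 (-1.41), beside 21.7% and 11.7% of all genes. Of 15 genes listed under chloride and volume-regulated channels, not all of which encode channels, 14 were read. Of these, 4 were higher (Clcn6 1.57, Lrrc8a 1.31, Clcn4 1.14 and Clcn5 1.02) and 1 lower (Lrrc8e -1.04), near the 21.7% and 11.7% of all genes read. The intervals of Clcn5 (0.95 to 1.09) and Lrrc8e (-1.28 to -0.81) reached below 2-fold. Of 17 ion pumps and cation-chloride transporters, 12 were read, 5 higher and 1 lower, again beside 21.7% and 11.7%. These include Slc12a2 (21.6 and 54.6 CPM, 1.34), which carries sodium and potassium with chloride, and Atp1b2 (1.56 and 0.293 CPM, -2.41), a sodium pump subunit. The sulfonylurea receptor genes, 2 in number, were under the minimum.

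**Figure D5:**
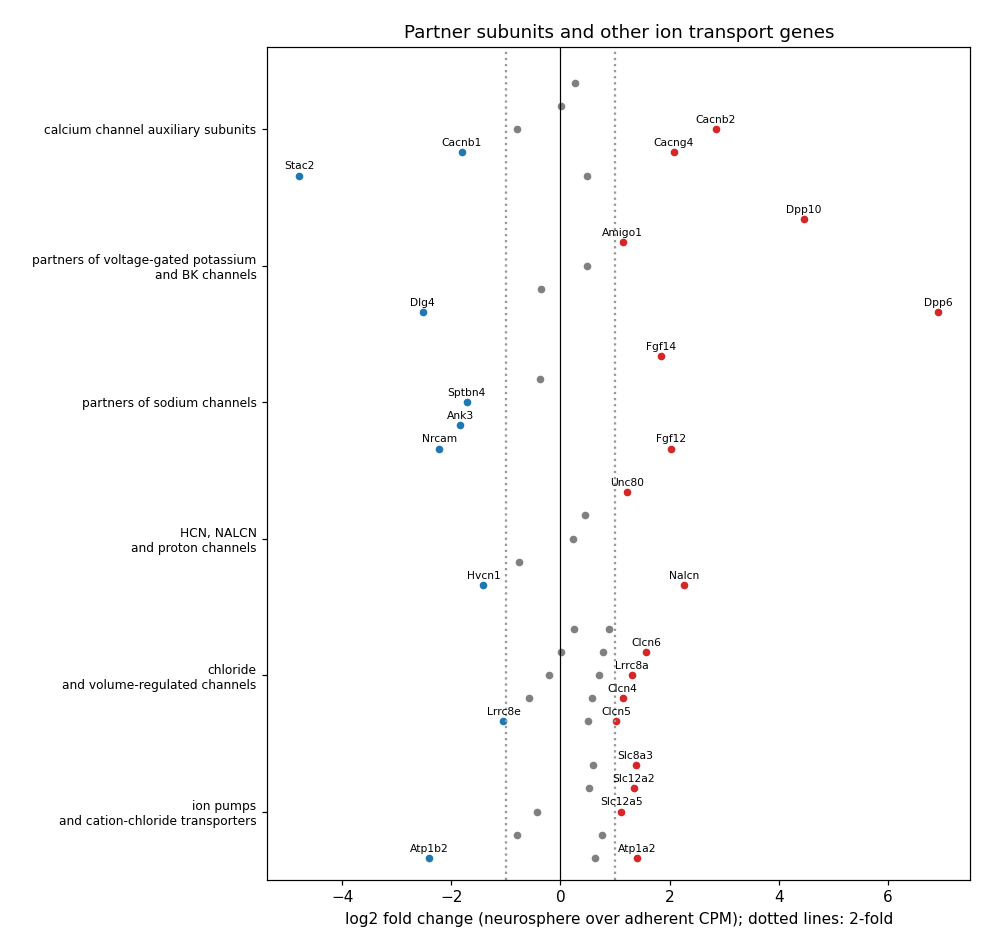
Log2 fold change (x axis, neurosphere over adherent CPM) of the genes read, apart from 1, in 6 lists of partner subunits and other ion transport genes (y axis), with genes past 2-fold (dotted lines) named, red for higher and blue for lower. Dpp6 lies farthest to the right at 6.93 and Stac2 farthest to the left at -4.79. The vertical offsets within a list only separate the points.

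Marker genes of other cell types differed between the cultures as well, and the counts below stand beside 21.7% higher and 11.7% lower of all genes read. All 8 oligodendrocyte precursor markers were read, 6 of them higher in neurosphere cells, with a summed level of 464.7 CPM in adherent against 2325 CPM in neurosphere cells. Olig1 (141.1 and 1292 CPM) and Olig2 (69.8 and 465.1 CPM) gave most of the neurosphere sum. Not past 2-fold were Pdgfra (6.61 and 4.87 CPM, -0.44, -0.67 to -0.21) and Sox10 (166.6 and 194.4 CPM, 0.22). Of the 9 neuron markers, 3 were read and 2 of them were higher, and the 9 summed to 51.6 and 236.6 CPM, of which Map2 alone gave 25.2 and 186.4 CPM. Syt1 was at 6.61 and 18.5 CPM and Tubb3 at 19.7 and 31.5 CPM. Of the markers not read, Snap25 and Slc17a6 had no UMI in either culture, Gad1 had 0 and 10 UMIs, and Rbfox3, Stmn2 and Nefl had at most 3 UMIs in a culture. Of the 7 astrocyte markers, 4 were read and 1 was lower (Slc1a3), and the 7 summed to 535.5 and 341.0 CPM, mostly Slc1a3 and S100b, while Gfap was at 0.648 and 0.416 CPM and Aqp4 and Gjb6 had no UMI, although the labels call the line an astrocytoma. Of the 8 immune markers, 2 were read and 1 was lower, and the 8 summed to 12.9 and 6.02 CPM, with Ptprc at 1 UMI and 0 UMIs and C1qa and Tyrobp at 0. Of the 6 endothelial markers, 2 were read and 1 was higher, and the 6 summed to 25.8 CPM in both cultures, with Cdh5 at 0. Of the 6 pericyte and smooth muscle markers, 1 was read and was lower (Des), and the 6 summed to 6.57 and 1.29 CPM. What part the differences in precursor and neuron markers have in the channel differences was not tested.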

How the data were processed

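The authors deposited raw UMI counts per gene and cell for 1 adherent and 1 neurosphere library, made with the 10x Genomics 3' v3 protocol and Cell Ranger 7.0.1 on mm10 per the submitters' processing notes. These counts were not normalized, and whether intron reads were counted is not given in the sources used here. The 13 mitochondrial and 101 ribosomal genes were removed, and then cells with under 1000 UMIs, under 1250 genes (adherent) or under 2250 genes (neurosphere). This left 32171 genes. No doublets were removed, but cells over the 95th percentile of UMIs were left out as an alternative. UMIs were summed per library and given as CPM, with exact conditional (log2 fold changes), Poisson (CPM) and Clopper-Pearson (shares) 95% intervals. With 1 library per culture, no test was run. Positions and spans came from GENCODE M21, where 32235 of 32285 identifiers matched. Clusters came from Seurat 5.3.0 (R 4.3.3; 2000 variable genes, 17 and 18 PCs, resolution 1), and TMM factors from edgeR 4.0.16. The length trend was fitted by lowess with a span of 0.5 in statsmodels 0.14.6. Python 3.11.15 with scipy 1.17.1, numpy 2.4.6, biopython 1.88, pandas 2.3.3 and matplotlib 3.10.9 did the rest, and the scripts were tested on simulated data.

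The channel genes, the gene lists and the tests were chosen with earlier results of these data known. A few of these genes are not reported here, though they count in all totals, and of the rest values in each library are given for the 12 channel genes with the most UMIs and the 6 highest and 6 lowest log2 ratios of CPM with 1 CPM added. For other channel genes, levels are given where a family is described. Up to 3 partner genes per list were taken by the same ratio, and Dpp6, Nalcn and the other genes in the cluster account come from those rules. The markers and the remaining partner genes named by their fold change were named after their values were seen.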

Additional observations from a re-analysis of the deposited data

Results flagged for a closer look

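The cells left out by the filter enter no level given above, only the minimum of 50 UMIs, the library totals and alternatives to the cell filter. Their summed channel level was above that of the kept cells. In the 713 adherent cells left out, the protein-coding genes of the rule summed to 308.7 CPM (256.1 to 368.8, 121 UMIs), against 135.5 CPM in the kept adherent cells. In the 675 neurosphere cells left out, they summed to 214.0 CPM (177.9 to 255.4, 123 UMIs), against 144.9 CPM in the kept neurosphere cells. Kcnt2 was at 89.3 CPM (62.2 to 124.2) in the left-out and 15.4 CPM in the kept adherent cells, and at 26.1 and 8.96 CPM in neurosphere cells. Kcnq1ot1 was at 91.8 and 22.1 CPM in adherent and at 149.6 and 78.9 CPM in neurosphere cells. Kcnab1 was at 38.3 CPM (24.0 to 58.0) against 12.6 CPM in neurosphere cells, while in adherent cells its interval (4.14 to 29.8 CPM) held the 6.33 CPM of the kept cells. For Kcnip3, Kcnk2 and Cacna1a, the interval in the left-out cells held the level of the kept cells in both cultures. The median share of mitochondrial UMIs was 48.8% in the left-out adherent and 87.0% in the left-out neurosphere cells, and its part in these levels was not tested.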

How the results depend on the processing

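No paired analysis was possible because each culture has 1 library. The 9 higher and 5 lower of the 32 genes, which include 3 that are not channel genes, became 14 and 9 of 50 with at least 20 UMIs (all genes 22.7% and 13.5%), 14 and 10 of 32 with a 1.5-fold limit (38.2% and 18.3%), and 3 and 3 of 17 with at least 50 UMIs in each library (17.7% and 9.18%). With at least 200 UMIs there were 6 and 2 of 17 (20.3% and 9.47%), and with the length trend removed 8 and 9 of 32 (14.3% and 15.7%). The median of 0.20 was 0.42 when the total included mitochondrial and ribosomal genes, -0.015 with TMM scaling, -0.35 without the length trend, 0.63 with at least 200 UMIs and -0.23 with at least 50 UMIs in each library. TMM scaling and the larger total shifted every log2 fold change by -0.22 and 0.22, so the Kv alpha sum was -0.23 and 0.20 and the protein-coding sum -0.12 and 0.32. TMM scaling put 9 of the 32 genes higher and 7 lower (all genes 16.1% and 14.6%), and the larger total 11 and 4 (29.5% and 9.42%). Of 500 other values, 436 moved by less than their counting interval, 64 moved by more and 0 changed sign past 2-fold. The call of Scn1a was lost with thinning and with the larger total, and that of Kcnip3 without the length trend (0.84). Kcnab1 passed 2-fold in 5 alternatives (1.00 without the shallowest adherent cluster, to 1.21 with the larger total). Kcnmb4 and Cacna1d passed it with TMM scaling (-1.13 and -1.18) and without the length trend (-1.31 and -1.87), and Cacna1d with thinning (-1.11). Kcnmb2 passed it with the larger total (1.09), and Kcnt2 and Cacna1a without the length trend (-1.62 and -1.20). With the protein-coding genes alone there were 8 and 5 of 30. Depth limits the rarest genes: at 50 UMIs in kept cells (51 in all called cells), the interval of Kcnmb2 holds both 0 and 2-fold.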
